A study of Mus musculus with 22 samples.

Results

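CD8+ T cells taken from tumor on day 11 were set against CD8+ T cells taken from tumor on day 7, in cells lacking VHL and in wild-type (WT) cells. The comparison used 10 of the 22 RNA sequencing libraries of the series: every day 11 library and every day 7 tumor library that had not been split into sorted Trm and nonTrm cells. The groups were VHL-deficient tumor cells of day 11 (3 libraries), VHL-deficient unsplit tumor cells of day 7 (2 libraries), WT tumor cells of day 11 (3 libraries) and WT unsplit tumor cells of day 7 (2 libraries). All 4 groups were P14 cells from mice of strain C57BL/6, labelled 6-12 weeks old, and the design text gives 5 mice for each biological replicate. P14 cells carry a transgenic T cell receptor that recognises a peptide of lymphocytic choriomeningitis virus. The sources used here give neither the tumor, nor the event from which days were counted, nor the way in which Vhl was deleted. The well names put the day 11 libraries in plate column 3 and the unsplit day 7 tumor libraries in column 2, so that day and plate column cannot be told apart in any result below.

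CD8+ T cells that enter a tumor divide, arm themselves with granzymes and perforin, which together kill target cells, and release cytokines and chemokines. Later they divide less, and part of them take on an exhausted state marked by inhibitory receptors such as PD-1. VHL binds hydroxylated hypoxia-inducible factors (HIF) and, within a ubiquitin ligase, sends them to degradation, so cells without it keep HIF active in the presence of oxygen.

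The 10 libraries held 3644936 to 8831316 reads assigned to genes, of which 27.98% to 32.6% fell on 1 ribosomal RNA gene and 2.89% to 10.01% on the mitochondrial genome. All levels below are scaled counts, meaning read counts divided by a size factor of the library, and 1 read was worth 0.762 to 2.35 of them. WT day 7 replicate 2 was the shallowest library and lay at 56.9 on the second principal component, against -36.2 to 22.4 in the other 9, while the first component parted the genotypes. Vhl stood at 3.81 to 16.9 in VHL-deficient day 11 libraries, against 1.35 and 5.51 in VHL-deficient day 7 libraries, and at 122 to 155 in WT day 11 libraries, against 141 and 177 in WT day 7 libraries. The genotype labels therefore match the Vhl reads. All 12 markers of CD8 T cells were measured, and their summed level was 40660 to 45355 in VHL-deficient day 11 libraries, against 43082 and 43504 on day 7, and 36161 to 39511 in WT day 11 libraries, against 31143 and 44497 on day 7.

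A small set of effector genes stood higher on day 11, among them 3 granzymes, Spp1 and 2 chemokines. Genes of DNA replication and cell division stood lower on day 11. Within a genotype they were called in VHL-deficient cells only, but a test of the difference between the genotypes called 0 genes. Averaged over the genotypes, 27 genes rose and 49 fell among 12826 tested, that is 0.211% and 0.382%, by limma on log2(scaled count + 1) with Benjamini-Hochberg adjustment and an adjusted p under 0.05. Both directions together made 0.593%. In VHL-deficient cells alone 12 genes rose (0.0936%) and 92 fell (0.717%), together 0.811%, and in WT cells alone 6 rose (0.0468%) and 0 fell, with 739 WT genes at an unadjusted p under 0.05 and 5 WT calls by voom. Log2 fold changes (log2FC) are day 11 over day 7 with their standard error (SE), and they understate the change of low genes because of the added 1.

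These calls rest on few libraries and on how the spread is estimated. The averaged count was 0 when limma's variance prior carried no trend with level, and 0 when all 22 libraries of the series were fitted together, with adjusted p-values no lower than 0.0756 and 0.0957. Leaving out WT day 11 replicate 1 gave 19 calls, WT day 11 replicate 2 gave 39, VHL-deficient day 11 replicate 2 gave 29 and either VHL-deficient day 7 library gave 12, while leaving out WT day 7 replicate 1 gave 728. In VHL-deficient cells the count of 104 was 0 without either VHL-deficient day 7 library, 19 without VHL-deficient day 11 replicate 2, 167 without WT day 7 replicate 1 and 160.0 without WT day 7 replicate 2. In WT cells the count of 6 was 331 without WT day 7 replicate 1, 14 without WT day 7 replicate 2 and 12 without WT day 11 replicate 3. The sign of the averaged log2FC was the same for all 76 called genes in each of 24 alternative analyses.

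Granzymes are serine proteases of cytotoxic granules, and in the mouse a cluster of their genes lies on chromosome 14. Of 24 tested genes of the cytotoxic machinery, 3 rose on day 11 and 0 fell, which is 12.5% called against 0.593% of all tested genes. The 3 were the neighbouring genes Gzmd (mm10 chr14:56129556-56132608), Gzme (chr14:56117626-56120625) and Gzmg (chr14:56156582-56159579), all on the minus strand. Parts of the transcripts of these 3 genes are alike, as given below, so the 3 calls may not be separate observations. The list as a whole had a median log2FC of 0.12, against -0.002 over all tested genes.

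Gzmd stood at 2162, 2506 and 1544 in the VHL-deficient day 11 libraries, against 536 and 733 in the VHL-deficient day 7 libraries. In WT cells it stood at 496, 1788 and 785 on day 11, against 135 and 98.8 on day 7. Day 11 lay above day 7 in both genotypes without overlap. Among all tested genes the days were apart with day 11 higher for 13.6% in VHL-deficient cells and 9.29% in WT cells, and apart in either direction for 31.2% and 17.3%. The averaged log2FC was 2.31 ± 0.27 (SE), limma adjusted p = 0.000658, with 1.69 in VHL-deficient cells (limma adjusted p = 0.0472) and 2.93 in WT cells (limma adjusted p = 0.00546).

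Gzme stood at 1123, 1428 and 900.0 in VHL-deficient day 11 libraries, against 486 and 425 on day 7, and at 341, 1210 and 488 in WT day 11 libraries, against 96.0 and 106 on day 7. The days were again apart in both genotypes, with an averaged log2FC of 1.92 ± 0.26 (SE), limma adjusted p = 0.00265. Gzmg had the largest fold change of the 3: it stood at 876, 3691 and 1338 in VHL-deficient day 11 libraries, against 37.9 and 133 on day 7. In WT cells it stood at 27.4, 195 and 36.3 on day 11, against 0 and 2.35 on day 7. The averaged log2FC was 4.76 ± 0.54 (SE), limma adjusted p = 0.000658, and voom, which weights by read depth, gave an adjusted p of 0.197. WT day 7 held 1 read of Gzmg in all, against 303 on day 11, a ratio of 137 with an exact 95% counting interval of 24.4 to 5433.

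The rest of the cytotoxic machinery did not pass the test. Gzmb, the most abundant granzyme, stood at 64780, 73334 and 45253 in VHL-deficient day 11 libraries, against 96736 and 75646 on day 7, and at 16109, 40696 and 23253 in WT day 11 libraries, against 23044 and 29394 on day 7. Its averaged log2FC was -0.29 with a 95% interval of -0.81 to 0.23 (limma adjusted p = 0.677). Perforin, Prf1, which opens the membrane for granzymes, had 0.35 with an interval of -0.19 to 0.89 (limma adjusted p = 0.619). Gzmf and Gzmc, from the same cluster, had 1.47 ± 0.43 and 0.72 ± 0.36 (SE, limma adjusted p = 0.156 and 0.453). WT day 11 replicate 2 held the highest WT level of Gzmd, Gzme, Gzmg, Gzmf, Gzmc, Gzmb and Prf1. Without that library the averaged log2FC was 2.06 for Gzmd, 1.66 for Gzme and 4.32 for Gzmg, with limma adjusted p-values of 0.000157 to 0.000264.

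The start regions of these genes are shown because the 3 genes that moved together resemble each other, as do other genes of the cluster. Each line gives the 250 bases before the start of the gene in RefSeq (GRCm38.p6, minus strand, written 5′ to 3′). Capitals mark TGTGGT, the core letters bound by RUNX factors, on either strand, and, in Gzmb alone, TGANTCA, the letters of AP-1, and no 2 marked motifs overlap.
Gzmd, chr14:56132594-56132843: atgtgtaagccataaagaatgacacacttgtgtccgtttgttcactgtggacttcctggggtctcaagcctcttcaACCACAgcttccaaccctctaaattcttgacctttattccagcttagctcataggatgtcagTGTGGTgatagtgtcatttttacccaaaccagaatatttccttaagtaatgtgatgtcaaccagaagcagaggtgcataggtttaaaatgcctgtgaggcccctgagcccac
Gzme, chr14:56120626-56120875: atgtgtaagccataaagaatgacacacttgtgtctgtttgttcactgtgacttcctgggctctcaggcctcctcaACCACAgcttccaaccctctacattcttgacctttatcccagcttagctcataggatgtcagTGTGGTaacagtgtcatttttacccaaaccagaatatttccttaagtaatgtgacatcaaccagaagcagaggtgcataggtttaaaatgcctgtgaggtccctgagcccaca
Gzmg, chr14:56159580-56159829: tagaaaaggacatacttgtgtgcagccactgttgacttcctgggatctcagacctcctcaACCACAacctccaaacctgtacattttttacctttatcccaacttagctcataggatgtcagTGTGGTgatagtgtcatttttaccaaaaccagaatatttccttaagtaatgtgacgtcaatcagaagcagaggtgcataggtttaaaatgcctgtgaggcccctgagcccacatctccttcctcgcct
Gzmb, chr14:56262335-56262584: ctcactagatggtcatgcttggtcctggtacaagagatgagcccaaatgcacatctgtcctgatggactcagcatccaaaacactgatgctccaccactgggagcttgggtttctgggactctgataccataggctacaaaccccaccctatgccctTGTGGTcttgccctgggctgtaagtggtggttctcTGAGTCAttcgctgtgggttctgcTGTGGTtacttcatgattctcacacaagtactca
The Gzmd and Gzme stretches were identical at 94.8% of aligned positions, Gzmd and Gzmg at 78.9%, and Gzmd and Gzmb at 47.3%. TGTGGT was found 2 times in each of the 4, and also 2 times in Gzmf and in Gzmc, which were not called. Gzmn, another gene of the cluster, had no match and was not called. Of all 27025 RefSeq promoters of that length 14.2% hold TGTGGT and of those of tested genes 11.2%, and of the promoters of genes that rose on average it was 6 of 23, or 26.1%. Those 6 include the alike stretches of Gzmd, Gzme and Gzmg shown above, so they are not 6 separate observations. AP-1 letters, held by 6.87% of all promoters, were found in Gzmb and in none of Gzmd, Gzme, Gzmg, Gzmf, Gzmc and Gzmn.

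The likeness extends to the transcripts. Gzmd and Gzme messages were identical at 90.4% of aligned positions. Gzmd matched Gzmg at 84.7%, and Gzmf, Gzmn and Gzmc, which were not called, at 83.3%, 77.2% and 70.3%. Of all windows of 50 bases, 21.9% in Gzmd, 20.6% in Gzme and 19.8% in Gzmg occur without mismatch in another granzyme of the cluster, against 0% in Gzmb. How reads matching several genes were counted is not given in the sources used here, so the division of reads among Gzmd, Gzme and Gzmg is uncertain, while reads of Gzmb are not shared in this way.

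Spp1, which encodes the secreted protein osteopontin (chr5:104435118-104441050), was the most abundant gene that rose. It stood at 17299, 21288 and 9963 in VHL-deficient day 11 libraries, against 6623 and 6129 on day 7. In WT cells it stood at 13348, 22698 and 7362 on day 11, against 980.0 and 2373 on day 7. All 6 day 11 libraries lay above all 4 day 7 libraries, as they did for 75 genes or 0.585% of those tested. The averaged log2FC was 2.19 ± 0.30 (SE), limma adjusted p = 0.00265. It was 1.28 in VHL-deficient cells, which missed the threshold (limma adjusted p = 0.273), and 3.10 in WT cells (limma adjusted p = 0.00588). The difference between the genotypes, -1.82 ± 0.59 (SE), did not pass (limma adjusted p = 1.0).

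Of the 7 tested chemokines 2 rose, Ccl1 and Ccl9, which is 28.6% called, against 0.593% of all tested genes. All 7 had a positive log2FC, with a median of 0.42, against 6370 positive of 12826 over all genes and a median of -0.002. Ccl1, a ligand of the receptor CCR8, stood at 3501, 2713 and 3285 in VHL-deficient day 11 libraries, against 1154 and 1071 on day 7, and at 1129, 897 and 509 in WT day 11 libraries, against 131 and 247 on day 7. The days did not overlap in either genotype, and the averaged log2FC was 1.83 ± 0.21 (SE), limma adjusted p = 0.000658. Ccl9, a ligand of CCR1, stood at 845, 1306 and 1396 in VHL-deficient day 11 libraries, against 657 and 377 on day 7, and at 501, 818 and 809 in WT day 11 libraries, against 112 and 160.0 on day 7. Its averaged log2FC was 1.79 ± 0.20 (SE), limma adjusted p = 0.000658. Ccl3, Ccl4, Ccl5 and Xcl1, which activated CD8+ T cells secrete in large amounts, had averaged log2FC of 0.22, 0.42, 0.40 and 0.56 with limma adjusted p-values of 0.236 to 0.645.

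Spp1 and Ccl9 are also made by macrophages, and the summed markers of that cell type were higher on day 11 in WT cells. The summed level of 15 macrophage and monocyte markers was 66.2 to 106 in VHL-deficient day 11 libraries, against 37.9 and 67.0 on day 7, and 115 to 163 in WT day 11 libraries, against 69.8 and 96.4 on day 7. Of the 15, 4 passed the filter and 0 were called, Adgre1 was at 0 in 9 of the 10 libraries and Trem2 in all 10. All 4 tested were positive in both genotypes, with a median log2FC of 0.81 in VHL-deficient and 1.14 in WT cells. In WT cells 3 of the 4, Lyz2, Cd14 and Apoe, were apart with day 11 higher, as were 9.29% of all tested genes, and Cd68 overlapped. Lyz2 stood at 18.2, 48.4 and 7.78 in WT day 11 libraries, against 0 and 4.70 on day 7. The sum of 14 neutrophil markers was 44.2 to 181 in VHL-deficient day 11 libraries, against 6.76 and 13.4 on day 7, with Mmp9 alone at 38.1 to 148 on day 11. In WT libraries it was 1093 in day 11 replicate 2 and 6.05 and 20.1 in the other day 11 libraries, against 5.45 and 11.8 on day 7. Without WT day 11 replicate 2 the averaged log2FC of Spp1 was 1.99 (limma adjusted p = 0.00367) and that of Ccl9 1.73 (limma adjusted p = 0.00165). Markers of dendritic cells and class II were also higher on day 11 in WT cells, where 7 of 8 tested were positive with a median log2FC of 1.81 and sums of 359 to 977, against 259 and 424 on day 7. In VHL-deficient cells 4 of 8 were positive, with a median of 0.00 and sums of 1959 to 2365, against 2016 and 2355. Most of these VHL-deficient sums was the gene H2-Ab1, at 1372 to 1689 on day 11, against 1821 and 1575 on day 7. In the same libraries H2-Aa stood at 3.15 to 8.39 and H2-Eb1 at 2.29 to 12.3. All 6 tested NK cell markers were positive in WT cells, with a median of 0.84 and sums of 349 to 896, against 265 and 346 on day 7, and in VHL-deficient cells, with a median of 0.26 and sums of 244 to 556, against 301 and 371. Melanoma and pigment cell markers summed to 52.6 to 93.8 in VHL-deficient day 11 libraries, against 32.5 and 38.6 on day 7, and to 38.1 to 57.9 in WT day 11 libraries, against 65.9 and 67.6 on day 7. B cell markers summed to 82.2 to 135 in VHL-deficient day 11 libraries, against 200.1 and 200.2 on day 7, and to 312 to 594 in WT day 11 libraries, against 532 and 1032 on day 7. In each of the 10 libraries the largest single member was Ighm for B cells, Fcer1g for NK cells and Cd68 for macrophages and monocytes. By limma 0 of the tested markers in these lists were called, and the part of these cells in the results was not tested. In bulk samples, a larger share of cells that make a message and more of it per cell cannot be told apart.

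**Figure D1:**
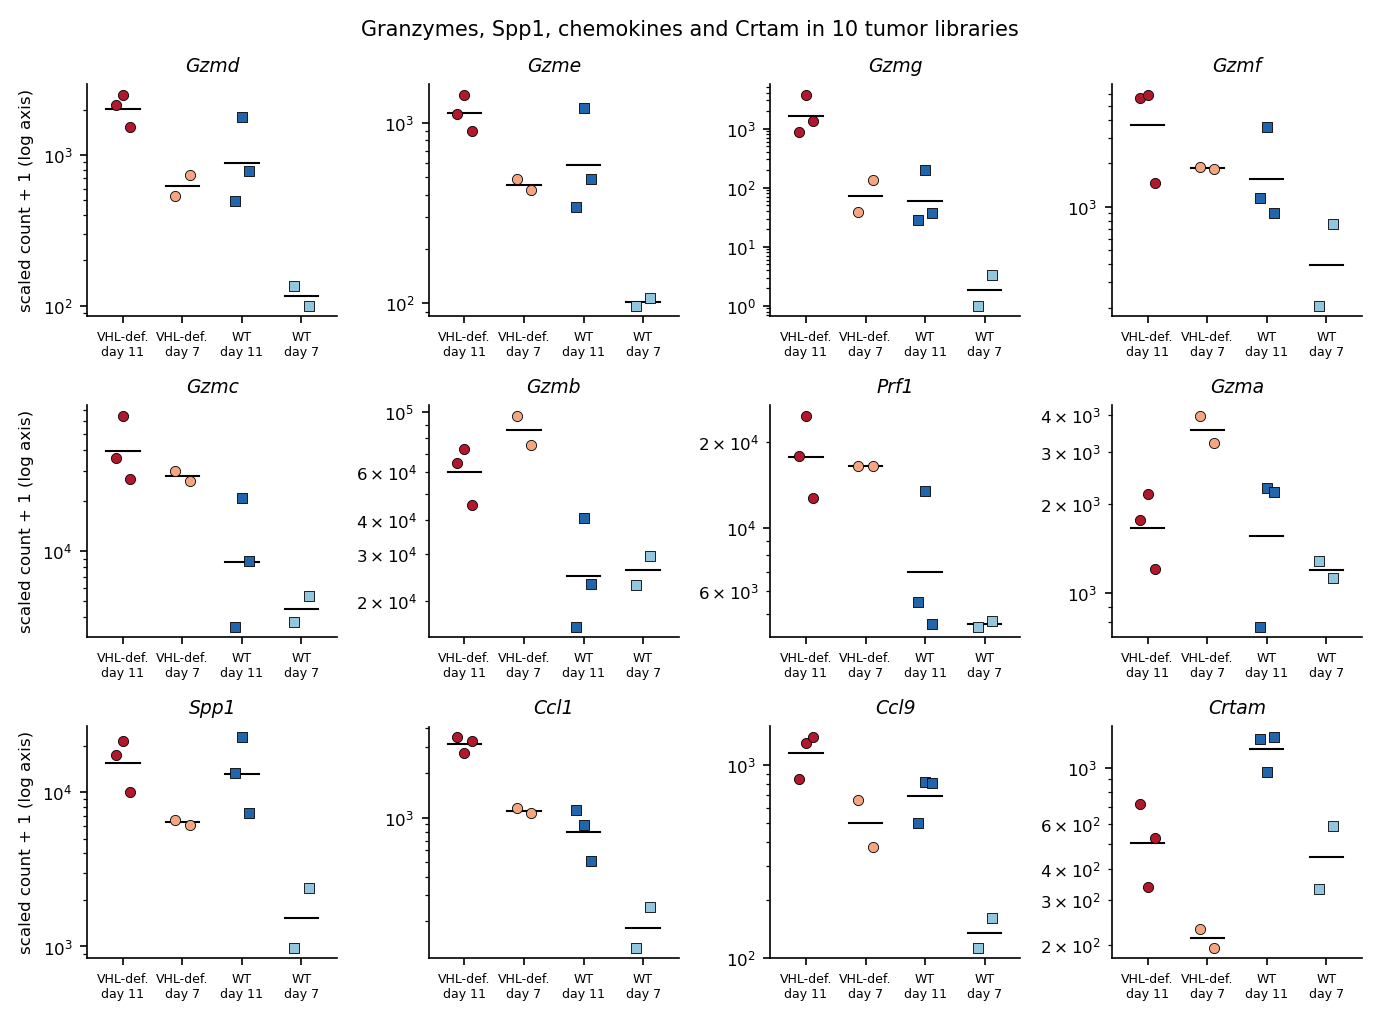
Scaled count + 1 (log axis) of 12 effector genes in each of the 10 libraries, 1 panel per gene. Circles are VHL-deficient and squares WT libraries, dark for day 11 and light for day 7, and bars are group means on the log scale. Gzmd, Gzme, Gzmg, Spp1, Ccl1 and Ccl9 lie higher on day 11 in both genotypes, and the day 11 and day 7 libraries overlap for Gzmb in WT cells and for Prf1 in both genotypes.

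Other surface molecules and regulators rose to a lesser degree. Crtam, a receptor of activated cytotoxic T cells, stood at 720.0, 337 and 528 in VHL-deficient day 11 libraries, against 231 and 194 on day 7, and at 1296, 962 and 1320 in WT day 11 libraries, against 333 and 590.0 on day 7. The days were apart within each genotype, with an averaged log2FC of 1.33 ± 0.20 (SE), limma adjusted p = 0.00946. Cx3cr1, the receptor of fractalkine, found on circulating effector cells, stood at 229, 275 and 245 in VHL-deficient day 11 libraries, against 78.5 and 128 on day 7, and at 139, 215 and 120.0 in WT day 11 libraries, against 65.4 and 89.4 on day 7. Its averaged log2FC was 1.15 ± 0.20 (SE), limma adjusted p = 0.0200.

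The inhibitory receptor gene Cd200r1 stood at 183, 112 and 104 in VHL-deficient day 11 libraries, against 47.3 in both day 7 libraries, and at 49.2, 91.2 and 42.4 in WT day 11 libraries, against 27.3 and 18.8 on day 7. It was the 1 of 25 tested inhibitory receptors and ligands that rose, with a log2FC of 1.37 (limma adjusted p = 0.0260). That is 4% called, against 0.593% of all tested genes. Cd200r1 was called in 13 of 24 alternatives, and voom gave an adjusted p of 0.0739. Slc17a6, which encodes a vesicular glutamate transporter known from neurons, stood at 219, 283 and 210.0 in VHL-deficient day 11 libraries, against 71.7 and 91.4 on day 7, and at 233, 253 and 143 in WT day 11 libraries, against 84.0 and 77.6 on day 7. All 6 day 11 libraries lay above all 4 day 7 libraries, and its log2FC was 1.43 ± 0.19 (SE), limma adjusted p = 0.00265. Anxa1, which encodes the phospholipid-binding protein annexin A1, was likewise apart, with 1458 to 1830 on day 11, against 726 to 1294 on day 7 (log2FC 0.63, limma adjusted p = 0.0429), although it was called in 11 of 24 alternatives and fell short without any 1 day 11 library or VHL-deficient day 7 library. Samd3 rose on average over the genotypes, and was called so in 20 of 24 alternatives. It also rose in VHL-deficient cells alone, averaging 151 ± 44.7 on day 11 (SD, n = 3), against 27.1 and 49.6 in the day 7 libraries (log2FC 1.97, limma adjusted p = 0.00953). In WT cells it stood at 208.5 to 390.2 on day 11, against 151.6 and 167 on day 7, without overlap (log2FC 0.87, limma adjusted p = 0.757).

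Genes of DNA replication and mitosis were 98 of the 12826 tested. They made up 23 of the 49 genes that fell on average and 54 of the 92 that fell in VHL-deficient cells. Of 42 tested genes of DNA replication and S phase, 10 fell (23.8%) and 0 rose on average, with a median log2FC of -0.66. Of 56 tested genes of mitosis and the kinetochore, 13 fell (23.2%) and 0 rose, with a median of -0.74. Of all tested genes 0.382% fell on average. In VHL-deficient cells 23 of the 42 and 31 of the 56 fell, or 54.8% and 55.4%, against 0.717% of all genes, with medians of -1.05 and -1.29. In WT cells 0 of either list was called, with 40 of 42 and 46 of 56 negative and medians of -0.27 and -0.22.

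Mki67, which encodes the proliferation marker Ki-67 (chr7:135689784-135716361), stood at 420.0, 315 and 332 in VHL-deficient day 11 libraries, against 1013 and 915 on day 7. In WT cells it stood at 1384, 1248 and 1179 on day 11, against 1297 and 1893 on day 7. The VHL-deficient days were far apart, while the WT days overlapped. The log2FC was -1.44 ± 0.20 in VHL-deficient cells (limma adjusted p = 0.00735) and -0.31 ± 0.20 in WT cells (SE, limma adjusted p = 0.855).

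Top2a, the topoisomerase that untangles chromosomes in dividing cells (chr11:98992943-99024189), stood at 698, 730.0 and 708 in VHL-deficient day 11 libraries, against 1869 and 1727 on day 7, and at 2216, 2634 and 2115 in WT day 11 libraries, against 2526 and 2808 on day 7. Its log2FC was -1.33 ± 0.16 in VHL-deficient cells (SE, limma adjusted p = 0.00565). Mcm5, a subunit of the replicative helicase (chr8:75109569-75128439), stood at 820.0, 676 and 1179 in VHL-deficient day 11 libraries, against 2164 and 1999 on day 7, and at 2050, 2037 and 2806 in WT day 11 libraries, against 2861 and 3309 on day 7. It fell in VHL-deficient cells by 1.26 ± 0.22 on the log2 scale (SE, limma adjusted p = 0.0130).

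The mitotic kinase gene Aurkb fell by 1.63 in VHL-deficient cells and the spindle motor gene Kif11 by 1.45 on the log2 scale (limma adjusted p = 0.00953 each). The helicase subunit Mcm2, the helicase partner Cdc45, the licensing factor Cdc6, the spindle checkpoint kinase Bub1b and the spindle protein Hmmr fell there by 1.28, 1.16, 1.81, 1.78 and 1.74, with limma adjusted p-values of 0.00953 to 0.0220. Pole encodes the catalytic subunit of DNA polymerase epsilon. All 6 of its day 11 libraries lay below the 4 day 7 libraries, as they did for 0.429% of tested genes. Pole was the 1 named gene of these lists with that pattern. It stood at 61.5, 87.6 and 124 in VHL-deficient and 212, 231 and 227 in WT day 11 libraries, against 271 and 254 in VHL-deficient and 257 and 355 in WT day 7 libraries, with an averaged log2FC of -1.01 ± 0.19 (SE, limma adjusted p = 0.0218). Topbp1, a replication checkpoint gene outside the lists, was apart in the same way, with 163 to 337 on day 11, against 348 to 542 on day 7 (log2FC -0.74, limma adjusted p = 0.0487). It was called in 5 of 24 alternatives and fell short of the threshold without any 1 of the 6 day 11 libraries or of the 2 VHL-deficient day 7 libraries.

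Over both division lists together, 92 of 98 genes (93.9%) had all 3 VHL-deficient day 11 libraries below both day 7 libraries, against 17.5% of all tested genes. In WT cells 19 of 98 (19.4%) did so, against 8.02%. Other lists also stood above 17.5% in VHL-deficient cells. The share was 67.7% for the proteasome, 62.5% for ribosomal proteins, glycolysis and serine and one-carbon enzymes, and 60.5% for type I interferon genes. Immediate early genes, at 3.03%, and chemokines, at 0%, were among the lists below it. The WT values of the division lists turned on the day 7 libraries. Without WT day 7 replicate 2 the WT median was -0.09 for replication and 0.07 for mitosis. Without replicate 1 it was -0.50 and -0.51. On average over genotypes, 9 and 8 members of the 2 lists were called without WT day 7 replicate 2, 29 and 38 without replicate 1, and 0 and 0 without either VHL-deficient day 7 library.

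The start regions of Mki67 and Top2a are shown as examples of the genes that fell (RefSeq, GRCm38.p6, minus strand, 250 bases before the start, 5′ to 3′). Capitals mark the letters TTTGAA of the cell cycle homology region (CHR), which cell cycle promoters carry, and TTGGCGC or TTCCCGC, letters bound by E2F factors, on either strand, and no 2 marked motifs overlap.
Mki67, chr7:135716380-135716629: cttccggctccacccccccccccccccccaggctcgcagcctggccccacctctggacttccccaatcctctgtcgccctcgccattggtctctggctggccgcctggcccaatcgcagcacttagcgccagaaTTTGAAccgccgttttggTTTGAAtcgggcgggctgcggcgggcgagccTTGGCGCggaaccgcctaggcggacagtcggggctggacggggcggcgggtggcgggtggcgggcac
Top2a, chr11:99024190-99024439: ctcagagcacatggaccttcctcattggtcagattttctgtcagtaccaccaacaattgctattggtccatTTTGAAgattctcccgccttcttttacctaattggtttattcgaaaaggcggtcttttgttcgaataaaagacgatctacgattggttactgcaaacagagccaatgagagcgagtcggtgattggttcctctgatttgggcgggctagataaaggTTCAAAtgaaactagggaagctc
Mki67 held CHR letters 2 times and E2F letters 1 time, and Top2a held CHR letters 2 times and no E2F letters. Among the 41 promoters found for genes that fell on average, 34.1% held CHR letters and 19.5% E2F letters, against 10.8% and 10.6% of the promoters of tested genes and 16.3% and 5.71% of all promoters. Among the 23 found for genes that rose, 21.7% held CHR letters and 4.35% E2F letters. Among the 76 found for genes that fell in VHL-deficient cells, the shares were 30.3% and 21.1%.

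**Figure D2:**
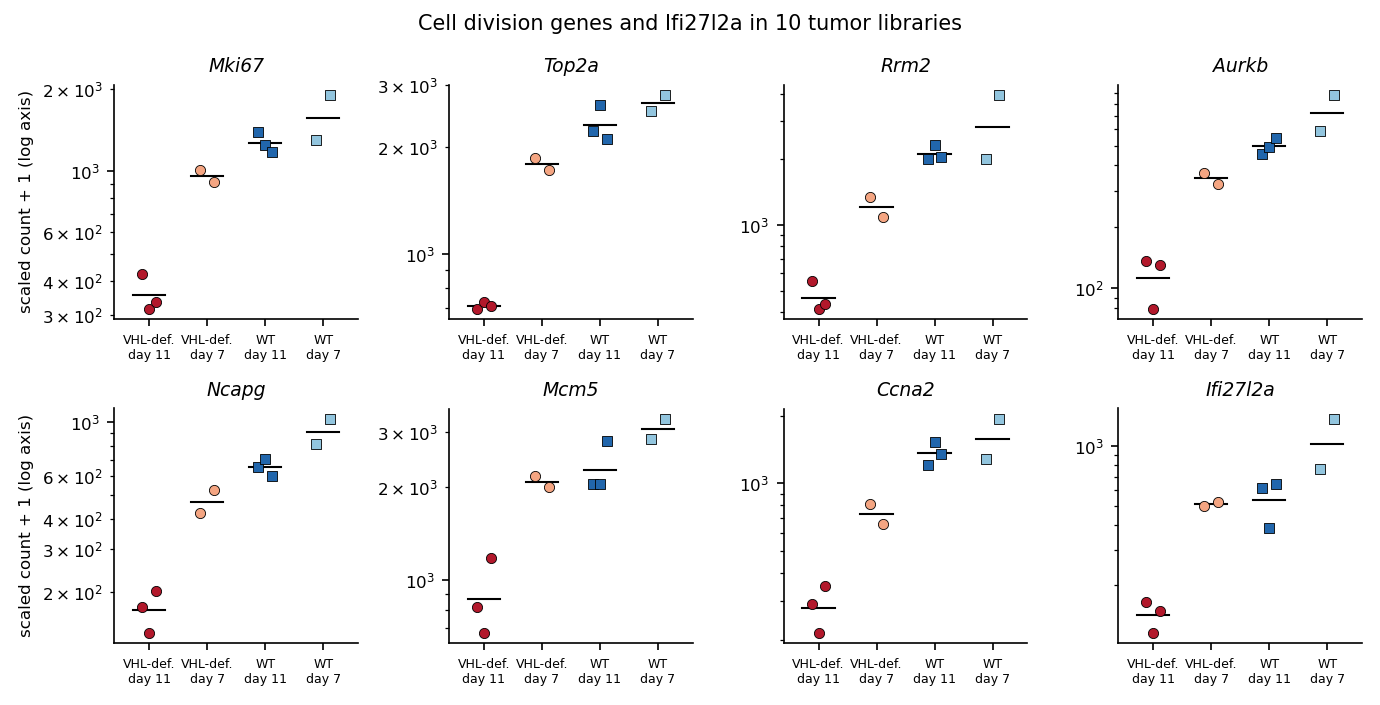
Scaled count + 1 (log axis) of 7 cell division genes and the interferon-induced gene Ifi27l2a in each of the 10 libraries, 1 panel per gene. Circles are VHL-deficient and squares WT libraries, dark for day 11 and light for day 7, and bars are group means on the log scale. VHL-deficient day 11 libraries lie below VHL-deficient day 7 libraries in every panel drawn, and the WT days lie closer together, as for Mki67 with 1179 to 1384 on day 11 and 1297 and 1893 on day 7.

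Ifi27l2a, an interferon-induced gene (chr12:103442167-103443680), stood at 163, 114 and 146 in VHL-deficient day 11 libraries, against 499 and 520.0 on day 7, and at 611, 386 and 640.0 in WT day 11 libraries, against 759 and 1359 on day 7. The days were apart in both genotypes, with an averaged log2FC of -1.40 ± 0.19 (SE), limma adjusted p = 0.00265. Ifi27l2a was the 1 of 38 tested type I interferon genes that fell on average, and 2 fell in VHL-deficient cells. Over the list the median log2FC was -0.28 and 33 of 38 genes were negative, against 6456 of 12826 over all genes. The WT median was -0.17, and it was 0.04 without WT day 7 replicate 1 and -0.35 without replicate 2. Ifitm3, an antiviral membrane protein gene not on that list, had 338 to 446 on day 11, against 508 to 985 on day 7, without overlap (log2FC -0.75, limma adjusted p = 0.0391). Day 11 lay below day 7 in this way for 0.429% of tested genes. Fasn, fatty acid synthase, had 321 to 429 on day 11, against 484 to 698 on day 7, also without overlap (log2FC -0.64, limma adjusted p = 0.0391), and was the 1 of 29 genes of cholesterol and fatty acid synthesis that was called. Ifitm3 was called in 8 and Fasn in 9 of 24 alternatives, and both fell short of the threshold without any 1 of the 6 day 11 or 2 VHL-deficient day 7 libraries, Ifitm3 also without WT day 7 replicate 2.

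The interaction of day and genotype was tested directly, and 0 of 12826 genes passed by limma. At an unadjusted p under 0.05 there were 467 genes, and voom also called 0. Without WT day 7 replicate 1 there were 16 interaction calls, without WT day 11 replicate 3 there was 1, and with a filter of at least 1 in at least 1 library there were 2. For Mki67 the day difference in VHL-deficient cells minus that in WT cells was -1.14 with a 95% interval of -1.73 to -0.55 (limma adjusted p = 0.817). For Top2a it was -1.13 with an interval of -1.62 to -0.64 (limma adjusted p = 0.611) and for Bub1b -1.94 with an interval of -2.79 to -1.08 (limma adjusted p = 0.611). With all 10 libraries the fall of division genes in VHL-deficient cells was thus not shown by this test to differ from the WT difference. The median of the interaction was -0.85 over the replication list and -1.05 over the mitosis list, against -0.021 over all tested genes.

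The day differences of the 2 genotypes come from separate libraries, although they share the plate columns, and can be set side by side. Of the 92 genes that fell in VHL-deficient cells 83 were negative in WT cells (90.2%, against 50.55% of all genes), with a median log2FC of -1.39 in VHL-deficient cells and -0.27 in WT cells. Of the 12 that rose in VHL-deficient cells 9 were positive in WT cells, with medians of 1.58 and 0.93. The 6 that rose in WT cells, Ccl1, Ccl9, Gzmd, Gzme, Gzmg and Spp1, were all positive in VHL-deficient cells, with a median of 1.41 there and 2.73 in WT cells. Across all tested genes the day differences of the 2 genotypes had Pearson r = 0.26 and Spearman rho = 0.29, and across the 6413 genes above the median level 0.47 for both, as a description over genes that are not independent.

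**Figure D3:**
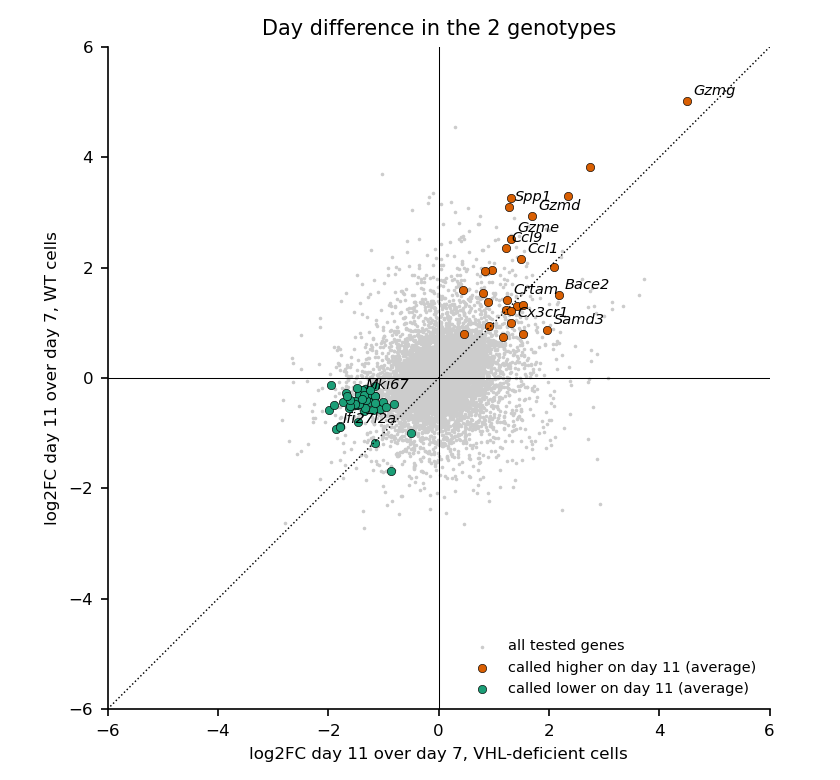
Log2FC of day 11 over day 7 in VHL-deficient cells (x axis) against that in WT cells (y axis) for 12826 tested genes, with genes called on average over the genotypes in orange (27 higher) and green (49 lower). The dotted line marks equal differences. Gzmg lies farthest out at 4.50 and 5.01, and all green points lie below 0 in both genotypes.

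Genes of exhaustion, memory and effector function outside those above did not pass the test between day 11 and day 7. Pdcd1, which encodes PD-1, stood at 2910 to 3839 in VHL-deficient day 11 libraries, against 3648 and 4967 on day 7, and at 2640 to 5275 in WT day 11 libraries, against 3645 and 4034 on day 7. Its averaged log2FC was -0.26 with a 95% interval of -0.64 to 0.12 (limma adjusted p = 0.598). Tox, a transcription factor of exhausted cells, had a log2FC of 0.22 with an interval of -0.23 to 0.66, and Tcf7, a transcription factor of stem-like cells, had 0.38 with an interval of -0.27 to 1.04 (limma adjusted p = 0.724 and 0.662). The checkpoint receptor genes Havcr2 and Lag3 had -0.14 and -0.31, and the cytokine genes Ifng and Tnf had 0.05 and 0.32 (limma adjusted p = 0.327 to 0.948). Of 19 exhaustion-linked transcription factors, 28 stem-like and memory genes, 32 residency genes and 21 effector transcription factors tested, 0 were called in either genotype or on average by limma.

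Energy metabolism and HIF targets likewise gave no call by limma. The list of glycolysis and glucose uptake had 0 of 24 genes called and a median log2FC of -0.20, and the other HIF targets had 0 of 34 and a median of 0.09. The glucose transporter gene Slc2a1, high in cells without VHL, averaged 1606 in VHL-deficient day 11 cells and 1398 on day 7, and 324 in WT day 11 cells and 302 on day 7, with a log2FC of 0.15 (95% interval -0.12 to 0.41, limma adjusted p = 0.680). The HIF prolyl hydroxylase gene Egln3 averaged 2250 in VHL-deficient day 11 cells and 2268 on day 7, and 136 in WT day 11 cells and 123 on day 7 (log2FC 0.04, limma adjusted p = 0.940). Nuclear subunits of oxidative phosphorylation had 0 of 72 called, with 58 negative and a median of -0.17. Cytosolic ribosomal proteins had 0 of 48 called, with 47 negative and a median of -0.27. In VHL-deficient cells day 11 lay below day 7 without overlap for 17.5% of all tested genes. The share was 62.5% for glycolysis, 14.7% for the other HIF targets, 45.8% for oxidative phosphorylation and 62.5% for ribosomal proteins. In WT cells these 4 shares were 16.7%, 0%, 1.39% and 0%, against 8.02%. The WT median of the ribosomal list, -0.34, was 0.11 without WT day 7 replicate 2 and -0.76 without replicate 1.

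**Figure D4:**
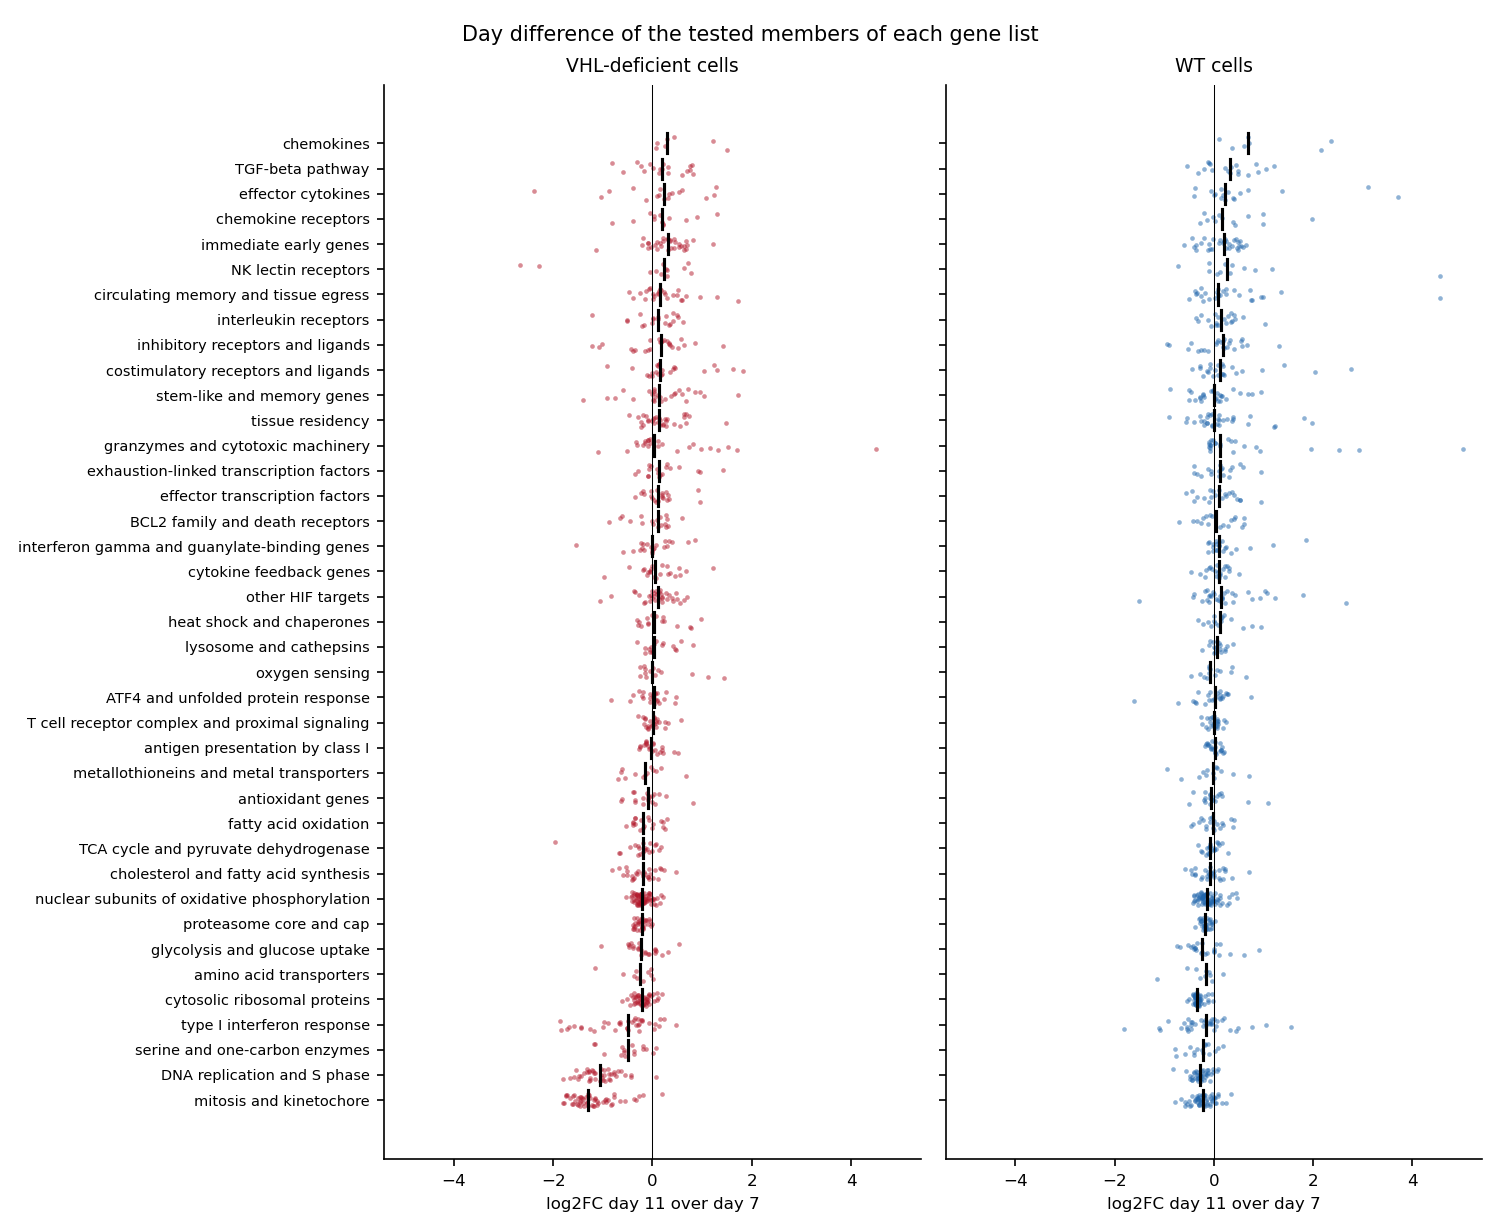
Log2FC of day 11 over day 7 of the tested members of 39 gene lists, in VHL-deficient cells (left) and in WT cells (right). Each point is a gene and each bar the median of the list. Division lists lie lowest in VHL-deficient cells, with medians of -1.05 and -1.29, and most other list medians lie within 0.5 of 0.

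Day 7 tumor cells sorted as Trm or nonTrm, from plate column 1, give another day 7 level, although they are other populations. Their levels are set beside the same day 11 libraries, so these values are no second test. Spp1 stood at 9963 to 21288 in VHL-deficient day 11 libraries, against 1988 to 7276 in the 4 sorted VHL-deficient day 7 libraries, and at 7362 to 22698 in WT day 11 libraries, against 143 to 3505 in the 4 sorted WT libraries. Ccl1 stood at 2713 to 3501, against 158 to 519, in VHL-deficient cells and at 509 to 1129, against 11.9 to 487, in WT cells. Ccl9 stood at 845 to 1396, against 95.5 to 281, in VHL-deficient cells and at 501 to 818, against 44.4 to 255, in WT cells. Those 3 genes were above the sorted day 7 cells too. Anxa1 and Cd200r1, which also rose, lay below every sorted VHL-deficient library. Anxa1 stood at 1567 to 1830 in VHL-deficient day 11 libraries, against 1919 to 3667, and Cd200r1 at 103.7 to 183.5, against 210.1 to 305.9. In WT cells both overlapped the sorted libraries. By mean log2 level, 23 of the 27 genes that rose stood above sorted VHL-deficient cells and 24 above sorted WT cells. Of the 49 that fell, 17 and 5 stood below them.

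Granzymes and division genes were not apart from the sorted cells. Gzmd stood at 1544 to 2506 in VHL-deficient day 11 libraries, against 816 to 4860 in sorted VHL-deficient day 7 libraries, and at 496 to 1788 in WT day 11 libraries, against 360 to 3500 in sorted WT libraries. Gzme stood at 900.0 to 1428, against 632 to 3714, in VHL-deficient cells and at 341 to 1210, against 310.5 to 2108, in WT cells. Mki67 stood at 315 to 420.0 in VHL-deficient day 11 libraries, against 175 to 473 in sorted VHL-deficient libraries, and at 1179 to 1384 in WT day 11 libraries, against 371 to 1826 in sorted WT libraries. The sorted WT libraries lay on both sides of WT day 11, with nonTrm at 371 and 682 and Trm at 1742 and 1826. For Gzmd, Gzme and Mki67 the sorted day 7 libraries span the day 11 levels in both genotypes. The unsplit day 7 libraries of the same genotype do not overlap those levels, except for Mki67 in WT cells. Gzmg overlapped the sorted libraries but was not spanned by them. It stood at 876 to 3691 in VHL-deficient day 11 libraries, against 6.21 to 1108 in sorted ones. In WT cells Gzmg stood at 27.4 to 195 on day 11, against 2.39 to 137.8. Replicate 2 of the VHL-deficient nonTrm cells, 1 of the 4 sorted VHL-deficient libraries, had 45.7% of its reads on the ribosomal RNA gene, against 26.9% to 30.7% in the other 7 sorted libraries.

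Some measures of RNA quality moved with day. In VHL-deficient cells the mitochondrial share was 2.89% to 3.32% on day 11, against 3.92% and 4.14% on day 7, without overlap, and in WT cells it was 8.13% to 10.01% on day 11, against 7.56% and 9.46% on day 7. The share averaged 3.09% in VHL-deficient day 11 libraries and 4.03% on day 7, and 9.13% in WT day 11 libraries and 8.51% on day 7. The day difference was averaged over the genotypes, which went opposite ways (exact permutation of day within genotype, two-sided, p = 0.760, smallest possible p 0.01). That test does not address the difference in VHL-deficient cells alone. The share of the ribosomal RNA gene gave p = 0.340 and the number of genes with a read p = 0.320 by the same exact permutation test. The nuclear RNA Malat1 stood at 6576 to 7718 in the 6 day 11 libraries, against 4839 to 5405 in the 4 day 7 libraries, with no overlap (log2FC 0.47, limma adjusted p = 0.0906). The sum of the nuclear long RNAs, most of it Malat1, was apart in both genotypes. It was 8328 to 9140 in VHL-deficient day 11 libraries, against 6518 and 6575 on day 7. In WT libraries it was 7288 to 8197 on day 11, against 5683 and 5917 on day 7. Kcnq1ot1 went the other way without overlap, with 464 to 602 in VHL-deficient day 11 libraries, against 672 and 628 on day 7. In WT libraries Kcnq1ot1 stood at 270 to 348 on day 11, against 438 and 357 on day 7. Neat1 overlapped between the days in both genotypes. Of 12 dissociation and stress genes 0 were called by limma, but 11 were positive in VHL-deficient cells, with a median log2FC of 0.45, and 7 in WT cells, with a median of 0.13. Their sum was 35928 to 43311 in VHL-deficient day 11 libraries, against 29651 and 32314 on day 7, without overlap, and 26204 to 35859 in WT day 11 libraries, against 21392 and 31530 on day 7. These VHL-deficient libraries are those in which division genes fell. The part of mitochondrial, nuclear and stress transcripts in the results above was not tested.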

How the data were processed

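RNA of sorted P14 cells was captured from lysates on beads and made into libraries with a PrepX kit, per the labels' protocols. The submitters' processing notes name STAR, featureCounts, DESeq and the build mm10, without versions. The deposited table gives the authors' normalized signal per gene, 1 column per library. Subtracting 1 left values that were whole multiples of 1 number per library (tolerance 0.01 reads) for 100.0% of values; the results minus 1 are called scaled counts, and reads were recovered from that number.

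A gene entered the tests if 2 or more of the 10 libraries reached a scaled count of 10 (12826 of 46297). Values of log2(scaled count + 1) were fitted in limma 3.58.1 (R 4.3.3) with 4 group means, a variance prior with trend and Benjamini-Hochberg adjustment over all tested genes, and genes with an adjusted p under 0.05 were called. The contrasts were the day difference averaged over genotypes, that in each genotype and their difference. Nothing says that replicates came from separate animals beyond the design text's 5 mice each. Intervals of single counts cover counting error only.

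The comparison and the 53 gene lists were chosen with earlier results of these data known. Named genes were, by rule, called genes above the median level (6.51 on the log2 scale) whose days did not overlap, called or abundant members of each list, and fixed marker genes. Gzmc, Gzmf, Ccl3, Ccl4, Ccl5, Xcl1, Mmp9, Rrm2, Ncapg, Ccna2 and the genes of the last section were added after their values were seen. Promoters are RefSeq's, with 64 of 76 called genes matched by symbol. Alternatives varied scaling, filter, pseudocount, variance prior, model, libraries and replicate block, and a planned edgeR test was not run.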

Additional observations from a re-analysis of the deposited data

How the results depend on the processing

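Of the counts given for the averaged difference (76), VHL-deficient cells (104), WT cells (6) and the interaction (0), those that moved by more than 1.5 times are given here, and the cause was not tested. With a filter of at least 1 in at least 1 library the averaged count was 128, the WT count 13 and the interaction count 2. Without a trend in limma's prior the first 3 counts were 0, with 1414, 1080 and 780.0 genes at an unadjusted p under 0.05, and over all 22 libraries they were also 0, with 817, 577 and 402. Over 21 libraries, without VHL-deficient nonTrm replicate 2, they were 2, 0 and 0. The additive model gave 24 averaged calls, and library weights gave 273 in VHL-deficient cells. Leaving out 1 library each gave 12 to 728 averaged calls, 0 to 167 in VHL-deficient cells, 6 to 331 in WT cells and 0 to 16 for the interaction; a group left with 1 library was assumed to vary like the others. A further TMM scaling gave 26 higher and 29 lower averaged calls, against 27 and 49, voom gave 16 and 57, and leaving out WT day 11 replicate 3 gave 33 and 29.

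The deviations of same-numbered libraries from their group means had correlations of -0.137 to 0.137. In groups of 2 libraries the deviations mirror each other, so these correlations come in pairs of opposite sign, which limits what they can show. Between the day 11 groups the same-numbered pairs had 0.0617, 0.137 and 0.122, and the other pairs -0.126 to 0.0017. The main fit did not pair samples by number, and whether the numbers pair samples was not settled. With the replicate block the averaged count was 113, of which 55 were among the 76, the VHL-deficient count 112, the WT count 12 and the interaction count 0. The planned edgeR test was not run. Over the named genes and all alternatives 3122 values stayed on their side of the threshold, 203 fell short of it and 27 newly passed. The sign changed in 98 values of 40 genes, none called in either analysis, such as Ifng and Egln3 near 0. Of the 76 genes, 12 were called in at least 20 of 24 alternatives, among them Spp1, Ccl1, Ccl9, Gzmd, Gzme, Gzmg and Ifi27l2a. Depth limits low genes such as Gzmg in WT day 7 cells, and 2 libraries a group limit every day 7 level.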

Other observations

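Further genes that rose on average over genotypes belonged to no gene list used above, and were picked from the calls after their values were seen. Serpinb9b, a member of the family of intracellular serine protease inhibitors, stood at 1267, 2308 and 806 in VHL-deficient day 11 libraries, against 551 and 834 on day 7, and at 1718, 3773 and 2228 in WT day 11 libraries, against 519 and 760.0 on day 7. The VHL-deficient days overlapped and the WT days did not, and the averaged log2FC was 1.46 (limma adjusted p = 0.0209). Cdkn2b, which encodes the cyclin-dependent kinase inhibitor p15INK4b, stood at 20.6 to 111 in VHL-deficient day 11 libraries, against 16.2 and 22.1 on day 7, and at 13.8 to 54.7 in WT day 11 libraries, against 2.18 and 2.35 on day 7. Its averaged log2FC was 2.29 (limma adjusted p = 0.0343). In WT cells that was 92 reads on day 11 and 3 on day 7, a ratio of 13.9 with an exact 95% counting interval of 4.60 to 68.5. Zbtb20, a zinc finger transcription factor gene, stood at 345 to 410.0 in VHL-deficient day 11 libraries, against 157 and 176 on day 7, and at 97.7 to 171 in WT day 11 libraries, against 70.9 and 91.7 on day 7 (log2FC 0.95, limma adjusted p = 0.0218). Mir155hg, the host transcript of miR-155, stood at 77.8 to 104 in VHL-deficient day 11 libraries, against 48.1 and 58.2 on day 7, and at 57.1 to 79.3 in WT day 11 libraries, against 14.1 and 32.7 on day 7 (log2FC 1.18, limma adjusted p = 0.0443). Of 24 alternatives, Serpinb9b was called in 19, Zbtb20 in 16, Cdkn2b in 11 and Mir155hg in 6.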
